A study of Mus musculus with 18 samples.

Results

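Uhrf2 and 8 further genes of the DNA methylation machinery were followed in the lateral septum (LS) of mice, a forebrain region with a part in social and maternal behaviors, across 3 reproductive groups. The 9 genes were Uhrf2, Dnmt1, Dnmt3a, Tet1, Tet2, Tet3, Mbd1, Mbd2 and Gadd45b, out of 19938 genes with a probeset of their own on the array. They were taken by symbol from probesets annotated to a single gene, and where a gene had more than 1 such probeset, the brightest by the mean of all 18 arrays was used. The set was chosen by measured values: Uhrf2 was selected on its signal in maternal mice against both other groups, so those differences are described here without a test, and its companions were gathered around it by function.

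Affymetrix Mouse Gene 1.0 ST arrays were hybridized with RNA from microdissected LS of 18 outbred hsd:ICR female mice about 70 days old, 6 mice per group and 1 array per mouse. Virgin mice had no litter and were in diestrus when taken. Maternal mice were lactating and kept a litter culled to 11 pups until tissue was taken on postpartum Day 7. Pups removed mice, whose litters were also set to 11 pups, lost them on postpartum Day 2 and were in diestrus. They were taken on the same postpartum day as the maternal mice. Lactation, pup contact and ovarian state therefore cannot be told apart between maternal and pups removed mice. Values are log2 signals, on which a difference of 1 is a doubling. Signals of different genes are not comparable, because each probeset has its own response.

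DNA methylation places a methyl group on cytosine, mostly where a cytosine is followed by guanine (CpG). Dnmt1 copies the pattern onto new DNA strands, and Dnmt3a writes new marks, also in neurons that no longer divide. Tet enzymes oxidize the methyl group to hydroxymethylcytosine, which is abundant in brain and can lead to its removal. Mbd proteins bind methylated CpG and bring in repressors, and Gadd45b, whose transcript is induced by neuronal activity, has been tied to demethylation in mouse hippocampus. Uhrf2 is a ubiquitin ligase that binds modified cytosine and methylated histone H3, and is a close relative of Uhrf1, which guides Dnmt1 to replicated DNA.

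The substrate of this machinery also lies in front of its own genes. RefSeq promoter windows of GRCm38.p6, from 250 bases before to 50 after a start site, were on hand for 7 of the 9 genes, without Mbd1 and Mbd2. The median over 32841 windows of 300 bases was 7 CpG. The Uhrf2 window held 28, that of Tet1 17, that of Tet3 22, that of Gadd45b 24 and that of Tet2 57. Dnmt1 and Dnmt3a each have 3 windows, which held 2 to 33 and 18 to 47. The 250 bases before the start are printed for the gene that heads the group, for Tet1, whose maternal and virgin arrays did not overlap, and for Tet3, which has the group's largest difference between pups removed and virgin mice. Each is on the gene's own strand, with CpG in capitals.
Uhrf2, chr19:30030263-30030512, plus strand: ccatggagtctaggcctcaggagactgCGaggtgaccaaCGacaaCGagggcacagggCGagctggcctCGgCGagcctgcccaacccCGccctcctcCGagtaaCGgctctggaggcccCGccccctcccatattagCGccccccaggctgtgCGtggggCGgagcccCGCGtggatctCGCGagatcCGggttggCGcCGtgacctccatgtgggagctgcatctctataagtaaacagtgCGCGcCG
Tet1, chr10:62887325-62887574, minus strand: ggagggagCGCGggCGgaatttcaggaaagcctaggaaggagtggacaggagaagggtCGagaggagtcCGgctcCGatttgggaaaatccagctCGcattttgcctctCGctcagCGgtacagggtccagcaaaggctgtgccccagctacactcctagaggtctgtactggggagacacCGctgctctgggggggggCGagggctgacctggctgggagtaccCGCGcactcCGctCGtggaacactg
Tet3, chr6:83441679-83441928, minus strand: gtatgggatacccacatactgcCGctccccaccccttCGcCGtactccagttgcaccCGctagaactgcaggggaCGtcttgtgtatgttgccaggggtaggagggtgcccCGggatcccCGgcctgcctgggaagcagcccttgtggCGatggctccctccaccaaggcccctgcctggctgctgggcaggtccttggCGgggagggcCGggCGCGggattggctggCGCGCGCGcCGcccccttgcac
The Uhrf2 window holds the palindrome TCTCGCGAGA, whose first base is 73 bases before the start. This run was searched on both strands after the Uhrf2 sequence had been read, and was present in 153 of the 32841 windows (0.466%) and in no window of the other 6 genes. The element has been linked to Kaiso (Zbtb33), a reader of methylated DNA. A match of letters is a description and not a binding site.

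Uhrf2 had its highest signals in maternal mice. The lowest, median and highest of 6 arrays were 9.77, 9.84 and 9.88 in maternal, 9.58, 9.67 and 9.78 in virgin, and 9.61, 9.665 and 9.72 in pups removed mice. Maternal and pups removed arrays did not overlap, while 1 virgin array, replicate 4, lay above the lowest maternal array. For all probesets, 0.835% did not overlap between maternal and virgin and 0.529% between maternal and pups removed mice. Means were 9.83 ± 0.04, 9.67 ± 0.07 and 9.67 ± 0.04 (SD, n = 6 each). The maternal mean was 0.16 above virgin and 0.16 above pups removed on the log2 scale (standard error of the limma fit, SE, 0.03 for both), which is 1.12-fold in each case.

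In the limma fit over all 35557 probesets, a probeset was called when its p, adjusted by Benjamini-Hochberg, was under 0.25. Of all probesets 1.65% were called between maternal and virgin, 0.0309% between maternal and pups removed and 0.208% between pups removed and virgin mice. For the maternal differences of Uhrf2, which chose it, no call is given. With each array left out in turn, its maternal mean was 0.14 to 0.18 above virgin and 0.15 to 0.17 above pups removed. These ranges describe the differences that chose it and do not test them. The remaining difference, pups removed minus virgin, was -0.0017 (SE 0.03, 95% interval -0.07 to 0.07). It follows from the maternal differences that chose Uhrf2, so it too is a description without a test.

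Uhrf2 was measured with little scatter. The SD of its arrays around their group means was 0.051, smaller than for all but 6.55% of genes, against a median of 0.093. This was not particular to Uhrf2: of the 9 genes, Dnmt1 was as even (0.0505) and Gadd45b the least even (0.0944). The genes compared for scatter include those with a mean signal under 7, and Uhrf2 was brighter than 83.3% of them all. Scatter among genes of like brightness was not compared. Because Uhrf2 was selected on these same arrays, its scatter is a description. Among 14150 other genes with a mean signal of at least 7, those whose pattern over the 18 arrays was most like that of Uhrf2 were Mertk (Pearson r = 0.888), Cish (0.864), Sult1a1 (0.858), B930095G15Rik (0.848) and Spire1 (0.839). Mertk is a receptor kinase for the uptake of dead cells, Cish an inhibitor of STAT5 signaling, Sult1a1 a sulfotransferase for phenols, and Spire1 an actin nucleator. All 5 had higher means in maternal mice than in either other group, which follows from their choice by likeness to Uhrf2. After group means were taken out, r was 0.716 for Mertk and 0.464 to 0.62 for the other 4. These values are descriptive, since the genes were picked for the highest r.

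**Figure D1:**
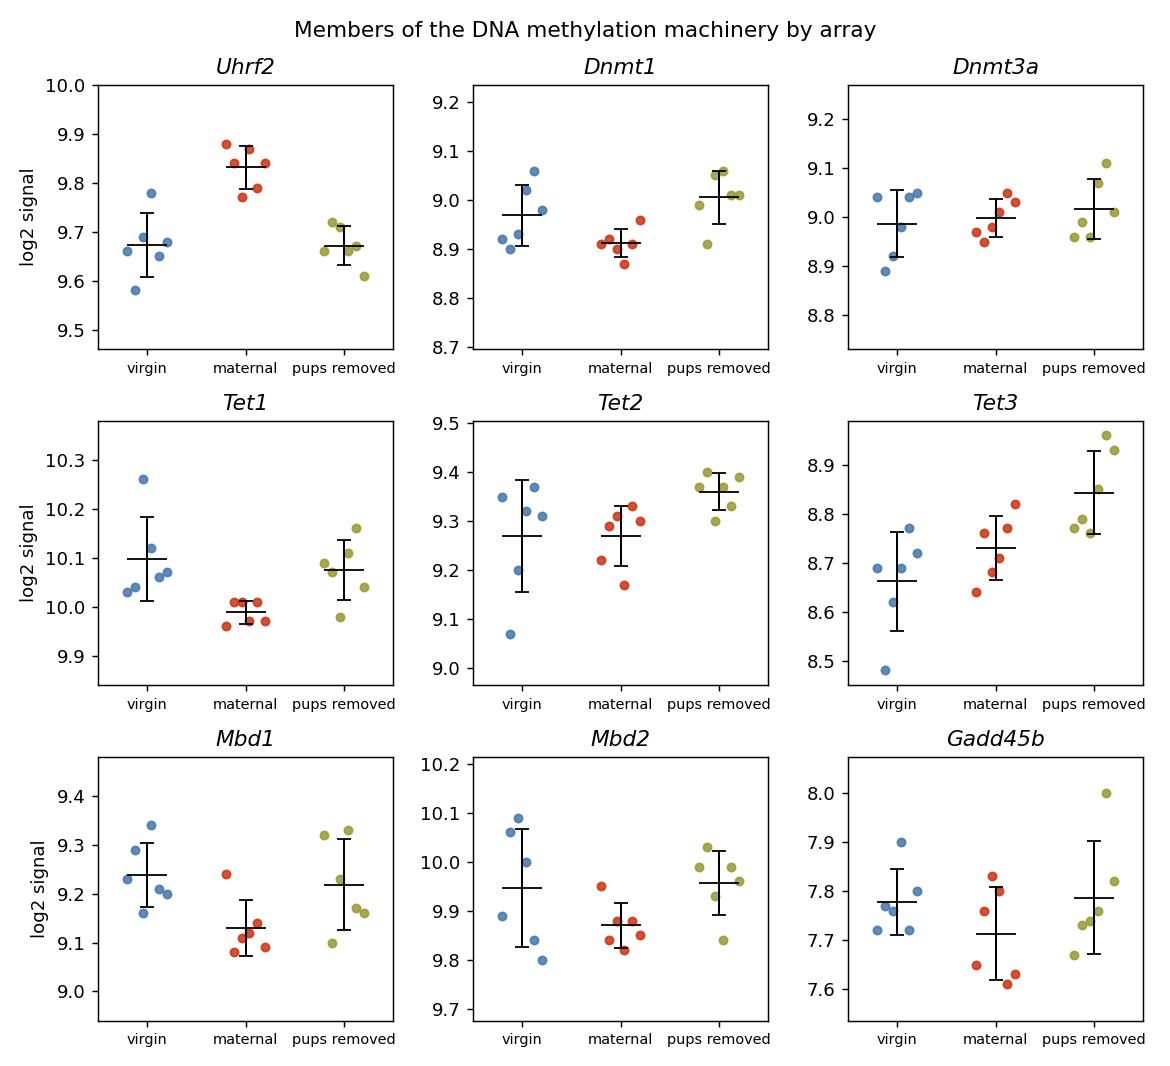
Log2 signal (y axis, 0.54 high in every panel) of each of the 9 genes in the 6 virgin, 6 maternal and 6 pups removed arrays (x axis), with 1 point per mouse and the mean ± SD in black. Maternal Uhrf2 arrays lie at 9.77 to 9.88, above all pups removed arrays, and maternal Tet1 arrays at 9.96 to 10.01, below all virgin arrays.

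In bulk tissue, fewer cells of a type and less RNA per cell cannot be told apart. The 8 markers of lateral septum had a mean signal of 10.05 to 10.13 in virgin, 10.10 to 10.24 in maternal and 9.995 to 10.15 in pups removed arrays. Other cell types differed in how far they moved with the maternal group. The median maternal minus virgin difference was -0.05 for 6 astrocyte, -0.01 for 4 oligodendrocyte, -0.015 for 3 GABAergic and 0.03 for 3 cholinergic markers. Against pups removed these medians were -0.07, 0.02, 0.03 and 0.02. The mean of 8 of 10 striatal neuron markers was 10.41 to 10.71 in virgin, 9.58 to 10.31 in maternal and 9.75 to 10.88 in pups removed arrays, and all 8 had lower means in maternal mice than in either other group. The mean of 14 of 15 markers of dividing cells was 6.93 to 7.04, 6.70 to 6.93 and 6.80 to 7.06, with 14 of 14 lower in maternal mice in both comparisons. That of 6 of 7 markers of neural stem cells and neuroblasts was 8.86 to 8.97, 8.75 to 8.86 and 8.81 to 8.93. The mean of 5 choroid plexus markers ran from 7.89 to 10.47 over the 18 arrays, and all 5, like all 5 ependymal markers, had lower means in maternal mice than in either other group. By limma 4 markers of dividing cells and 3 of neural stem cells and neuroblasts were called lower in maternal than in virgin mice, as were 2 of 5 microglial markers, while 1 of 5 endothelial markers was called higher. Of all probesets 1.65% were called in this comparison, and of the striatal, choroid plexus and ependymal markers 0 were. The mean of the microglial markers was 8.31 to 8.39 in virgin, 8.25 to 8.35 in maternal and 8.30 to 8.37 in pups removed arrays, and that of the endothelial markers 8.32 to 8.47, 8.30 to 8.53 and 8.36 to 8.52. The part of these cell types in the differences of the 9 genes was not tested.

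Apart from Uhrf2, 0 of 8 genes were called in any of the 3 comparisons by limma. Of all probesets 1.65% were called between maternal and virgin, 0.0309% between maternal and pups removed and 0.208% between pups removed and virgin mice. At an unadjusted p under 0.05, 2 of 8 passed between maternal and virgin mice, where 10.4% of all probesets did, and both (Tet1 and Mbd1) were lower, as were 4.62% of all probesets, while 5.8% were higher. Between maternal and pups removed mice 3 of 8 passed (8.96% of all), all lower (Dnmt1, Tet1 and Tet3), against 5.63% lower and 3.33% higher over all probesets. Between pups removed and virgin mice 1 of 8 passed (8.13% of all), Tet3, which was higher, against 6.15% higher and 1.99% lower. All 8 had lower means in maternal than in pups removed mice, with differences of -0.11 to -0.0183 and a median of -0.0875, against a median of -0.0033 for all probesets, of which 51.7% were lower. Among single genes with a mean signal of at least 7, 60% were lower. With quantile normalization the difference of Dnmt3a turned to 0.0071, so that 7 of the 8 were lower, and without pups removed replicate 5 it was 3e-04. Between maternal and virgin mice 5 of the 8 were lower, 2 higher and 1 equal, with a median of -0.06, while 43.4% of all probesets and 54.4% of single genes with such a mean were lower. Between pups removed and virgin mice 2 of the 8 were lower and 6 higher, with a median of 0.02, while 42.3% of all probesets and 44.7% of such genes were lower, and 0 of the 8 had groups that did not overlap (0.38% of all probesets). Each pair of these comparisons shares 1 group of arrays, so they are not independent of each other.

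**Figure D2:**
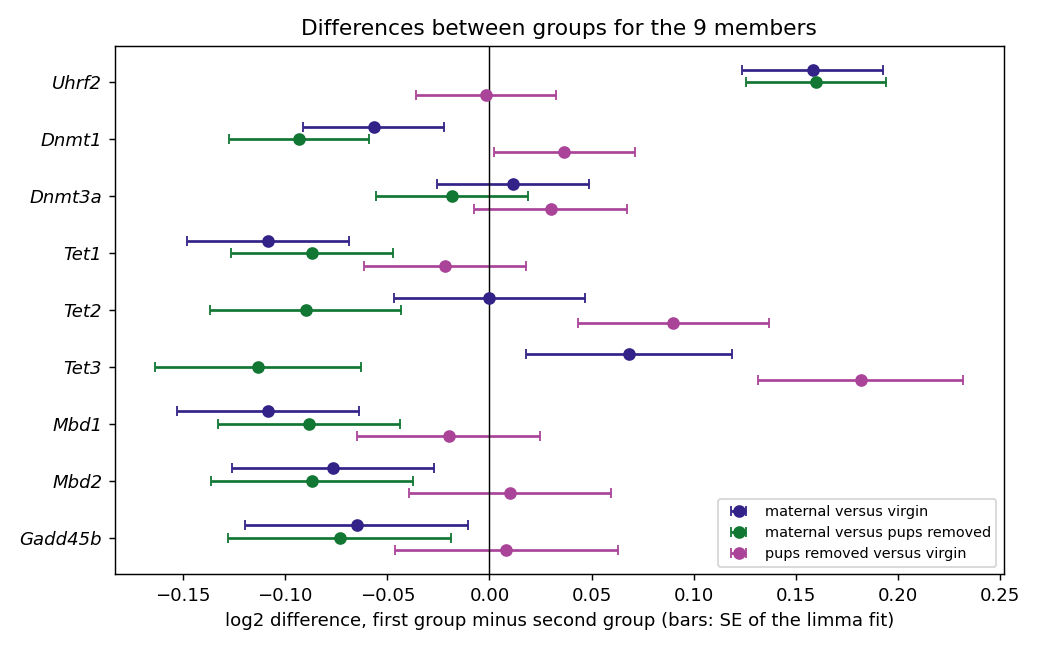
Log2 difference between groups (x axis, first group minus second group) for each of the 9 genes (y axis) in the 3 comparisons, with the SE of the limma fit as bars. Uhrf2 stands at 0.16 in both maternal comparisons, while the other 8 genes lie between -0.11 and -0.0183 for maternal minus pups removed.

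Of the writers, Dnmt1, the maintenance methyltransferase, was at 8.87, 8.91 and 8.96 in maternal mice (lowest, median and highest), at 8.90, 8.955 and 9.06 in virgin mice, and at 8.91, 9.01 and 9.06 in pups removed mice. The 3 groups overlapped, and all 6 maternal arrays were below the pups removed mean. The difference from pups removed was -0.09 (SE 0.03, limma adjusted p = 0.456) and that from virgin -0.06 (SE 0.03, limma adjusted p = 0.584). Its closest genes over the 18 arrays were Pwwp2a (r = 0.882), a chromatin protein that binds H2A.Z nucleosomes, Chd3 (0.875), a remodeler of the NuRD repressor complex, and Sun1 (0.853), a protein of the nuclear envelope.

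Dnmt3a, the methyltransferase that writes new marks in neurons, was nearly level. Its lowest, median and highest signals were 8.95, 8.995 and 9.05 in maternal, 8.89, 9.01 and 9.05 in virgin, and 8.96, 9.0 and 9.11 in pups removed mice. The 3 ranges overlapped between 8.96 and 9.05. The 95% intervals of its differences were -0.07 to 0.09 for maternal minus virgin, -0.10 to 0.06 for maternal minus pups removed, and -0.05 to 0.11 for pups removed minus virgin, with limma adjusted p = 0.942, 0.916 and 0.888. These intervals are not adjusted for the number of probesets.

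Of the dioxygenases, Tet1 had the most even maternal signals. They ran from 9.96 through a median of 9.99 to 10.01, against 10.03, 10.065 and 10.26 in virgin and 9.98, 10.08 and 10.16 in pups removed mice. All maternal arrays lay below all virgin arrays, and Tet1 was the 1 of the 8 genes other than Uhrf2 with no overlap in this comparison, where 0.835% of all probesets had none, while maternal and pups removed arrays overlapped. The difference from virgin was -0.11 (SE 0.04, limma adjusted p = 0.34; exact two-sided permutation p = 0.0022 before adjustment, the smallest that 6 against 6 arrays allow) and did not pass. With probesets of a mean signal under 7 left out it passed (limma adjusted p = 0.244), and over the other settings its limma adjusted p reached 0.532. The SD was 0.02 in maternal, 0.09 in virgin and 0.06 in pups removed mice, and virgin replicate 3 was the highest array at 10.26. Without it the difference was -0.08. The difference from pups removed was -0.09 (SE 0.04, limma adjusted p = 0.548).

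Tet1 has 2 further probesets of its own, with means of 8.94 and 7.95 against 10.05 for the one used. The nearer one gave -0.09 for maternal minus virgin (SE 0.04, limma adjusted p = 0.443) and -0.08 for maternal minus pups removed (SE 0.04, limma adjusted p = 0.59). The dimmest gave -0.04 for the first of these (SE 0.06, limma adjusted p = 0.838), and for the second the difference was -0.13 (SE 0.06, limma adjusted p = 0.536). All 3 therefore had lower maternal means in both comparisons, and none was called. The 3 probesets read the same RNA samples and are not replicates.

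Tet2, which lacks the CpG-binding domain of its relatives, was at 9.17, 9.295 and 9.33 in maternal, 9.07, 9.315 and 9.37 in virgin, and 9.30, 9.37 and 9.40 in pups removed mice. The pups removed arrays had the highest median and were the most even, though their range overlapped both others. Virgin replicate 2 was the lowest of all 18. Maternal and virgin means were equal at 9.27 (95% interval of the difference -0.10 to 0.10). Pups removed minus virgin was 0.09 (SE 0.05, limma adjusted p = 0.662), and maternal minus pups removed was -0.09 (SE 0.05, limma adjusted p = 0.602).

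Tet3, the main Tet enzyme of the oocyte and also expressed in neurons, had its highest signals in pups removed mice. They were 8.76, 8.82 and 8.96, against 8.64, 8.735 and 8.82 in maternal and 8.48, 8.69 and 8.77 in virgin mice. The pups removed and virgin ranges overlapped only between 8.76 and 8.77. The difference between these groups was 0.18 (SE 0.05, limma adjusted p = 0.348), or 1.13-fold, the largest of any of the 9 genes in any comparison, and it did not pass. Maternal minus pups removed was -0.11 (SE 0.05, limma adjusted p = 0.536) and maternal minus virgin 0.07 (SE 0.05, limma adjusted p = 0.666).

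The second Tet3 probeset, with a mean of 8.53 against 8.745, did not follow the first. It gave -0.01 for pups removed minus virgin (SE 0.05, limma adjusted p = 0.978), and -0.07 for maternal minus virgin (SE 0.05, limma adjusted p = 0.667). The gap between the probesets was 0.29 ± 0.07 in pups removed, 0.24 ± 0.09 in maternal and 0.10 ± 0.12 in virgin mice (log2, SD, n = 6 each). The gap differed between pups removed and virgin mice by 0.19 (exact two-sided permutation test, p = 0.00433), in a test chosen after the values were seen. Between maternal and virgin mice it differed by 0.14 (exact permutation test, p = 0.0563), and between maternal and pups removed by -0.05 (exact permutation test, p = 0.316). With the probesets averaged, Tet3 differed by 0.09 between pups removed and virgin mice and by -0.0017 between maternal and virgin mice. No position of these probesets along the transcript was at hand.

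**Figure D3:**
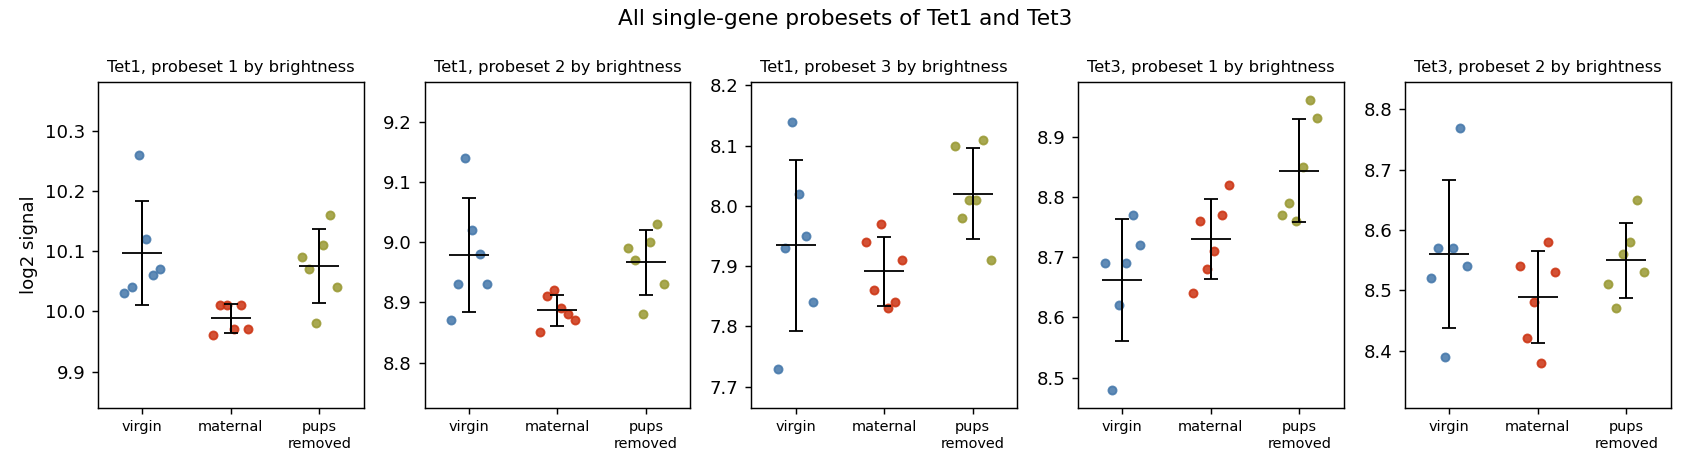
Log2 signal (y axis, 0.54 high in every panel) of the 3 Tet1 and 2 Tet3 probesets that name 1 gene, from brightest to dimmest, in virgin, maternal and pups removed arrays (x axis), with 1 point per mouse and the mean ± SD in black. The maternal mean is the lowest in each Tet1 panel, while the Tet3 order differs between its panels, with pups removed minus virgin at 0.18 in the first and -0.01 in the second.

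Of the readers, Mbd1, which binds methylated CpG and recruits a histone H3 methyltransferase, was at 9.08, 9.115 and 9.24 in maternal, 9.16, 9.22 and 9.34 in virgin, and 9.10, 9.20 and 9.33 in pups removed mice. Of the 6 maternal arrays 5 were below every virgin array, and replicate 1 was among them at 9.24. The differences were -0.11 from virgin (SE 0.04, limma adjusted p = 0.407) and -0.09 from pups removed (SE 0.04, limma adjusted p = 0.59). Mbd2, which joins the NuRD complex to methylated DNA, was at 9.82, 9.865 and 9.95 in maternal, 9.80, 9.945 and 10.09 in virgin, and 9.84, 9.975 and 10.03 in pups removed mice. Virgin arrays spread on both sides of the maternal ones, with an SD of 0.12 against 0.05. The differences were -0.08 from virgin (SE 0.05, limma adjusted p = 0.613) and -0.09 from pups removed (SE 0.05, limma adjusted p = 0.637). The genes most like Mbd2 over the 18 arrays were Slc31a1 (r = 0.919), a copper transporter, Plpp1 (0.918), a lipid phosphatase, and Nus1 (0.909), a subunit of the enzyme that makes dolichol.

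Gadd45b, which binds no DNA mark itself but is held to bring repair enzymes to methylated promoters, was at 7.61, 7.705 and 7.83 in maternal, 7.72, 7.765 and 7.90 in virgin, and 7.67, 7.75 and 8.0 in pups removed mice. Among the maternal arrays were 3 at 7.61 to 7.65 and 3 at 7.76 to 7.83, and the latter lay within the range of both other groups. The differences were -0.065 from virgin (SE 0.05, limma adjusted p = 0.72) and -0.07 from pups removed (SE 0.05, limma adjusted p = 0.723). The mean of 10 of 10 immediate early genes, which are induced by neuronal activity as Gadd45b is, was 8.41 to 8.765 in maternal, 8.29 to 8.93 in virgin and 8.24 to 8.52 in pups removed arrays. All 10 had higher means in maternal than in pups removed mice, as had 47.5% of all probesets. Against virgin 8 were higher and 2 lower, with 55.7% of all probesets higher. The Gadd45b difference was negative in both comparisons. Called were 0 of the 10 in either, against 0.0309% of all probesets for pups removed and 1.65% for virgin. The part of neuronal activity in the Gadd45b differences was not tested. The genes most like Gadd45b were Jph3 (r = 0.76), Tshz1 (0.745) and 4930563E22Rik (0.731), none of them on the immediate early list.

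A list of 75 further genes of the pathway, of which 65 had a probeset of their own, showed 0 called in each of the 3 comparisons by limma at the brightest probeset of each gene. Of all probesets 1.65% were called between maternal and virgin, 0.0309% between maternal and pups removed and 0.208% between pups removed and virgin mice. Of 9 dimmer probesets of 8 of these genes 1 was called, a second probeset of Tbl1xr1 between maternal and virgin mice. A count this small is not read as a result about the list. At an unadjusted p under 0.05, 1 higher and 4 lower passed between maternal and virgin mice, 0 and 5 between maternal and pups removed, and 0 and 2 between pups removed and virgin. These 5, 5 and 2 of 65 stand against 10.4%, 8.96% and 8.13% of all probesets. Of the 65, 44 were lower in maternal than in virgin mice, with a median of -0.0217 against 0.0117 for all probesets and 0 for the brightest probesets of all single genes. Among single genes with a mean of at least 7, 54.4% were lower. The 65 were not filtered in this way and include genes with a mean under 7, so the shares are not fully alike. Against pups removed 43 were lower, 21 higher and 1 equal, with a median of -0.0117 against -0.0033 and -0.005, and 60% of such single genes were lower. Between pups removed and virgin mice 36 were higher and 29 lower, with a median of 0.0083 against 0.0117 and 0.0033, and 44.7% of such single genes were lower.

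Among the genes that bring methyltransferases to DNA, Uhrf1 was at 6.75, 6.815 and 6.96 in maternal, 6.80, 6.975 and 7.06 in virgin, and 6.74, 6.905 and 7.07 in pups removed mice. These are low signals, with all group means under the level of 7 used here for filtering. Its maternal minus virgin difference was -0.14 (SE 0.06, limma adjusted p = 0.416), while that of Uhrf2 was 0.16, and maternal minus pups removed was -0.08 (SE 0.06, limma adjusted p = 0.733). Uhrf1 is a gene of dividing cells, whose 14 measured markers all had lower maternal means, and their part in its difference was not tested. Dnmt3l, a cofactor of new methylation in germ cells, gave -0.11 for pups removed minus virgin (SE 0.06, limma adjusted p = 0.705). Its signal was lower still, with means of 6.08 in pups removed and 6.19 in virgin mice.

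At the brightest probesets, the smallest p of the list in both maternal comparisons was in the supply of methyl groups. Mthfd1, an enzyme of folate metabolism, was at 8.95, 9.01 and 9.11 in maternal, 9.11, 9.135 and 9.18 in virgin, and 9.07, 9.13 and 9.24 in pups removed mice. The highest maternal array equaled the lowest virgin one. The differences were -0.11 from virgin (SE 0.04, limma adjusted p = 0.296) and -0.12 from pups removed (SE 0.04, limma adjusted p = 0.391). With 1 array left out, the first passed in 1 of 18 fits, that without maternal replicate 1 (-0.13, limma adjusted p = 0.217). The second passed in 1 of 18, that without pups removed replicate 4 (-0.13, limma adjusted p = 0.236). In these fits the calls over all probesets rose from 585 to 946 and from 11 to 719. Over all settings the limma adjusted p reached 0.481 for the first and 0.673 for the second. Mat2b, a regulatory subunit of the enzyme that makes S-adenosylmethionine, gave -0.10 for maternal minus pups removed (SE 0.04, limma adjusted p = 0.421). Ahcyl1, a relative of S-adenosylhomocysteine hydrolase known to act at the inositol trisphosphate receptor, gave 0.09 for maternal minus virgin (SE 0.03, limma adjusted p = 0.349).

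Among removal and repair genes, Gadd45g, a relative of Gadd45b, gave -0.13 for pups removed minus virgin (SE 0.04, limma adjusted p = 0.387). Mbd4, a glycosylase that excises thymine left by deamination of methylcytosine, gave -0.11 for maternal minus pups removed (SE 0.04, limma adjusted p = 0.457). Of the corepressor partners, Rbbp4, a histone chaperone of several complexes, gave -0.08 for maternal minus virgin (SE 0.03, limma adjusted p = 0.399) and -0.09 for pups removed minus virgin (SE 0.03, limma adjusted p = 0.475). Chd3 gave -0.10 for maternal minus pups removed (SE 0.03, limma adjusted p = 0.399), and Mta1, another NuRD subunit, 0.05 for pups removed minus virgin (SE 0.03, limma adjusted p = 0.698). Tbl1xr1, a subunit of the NCoR corepressor complexes, had 2 probesets, named here after their values were seen. The dimmer was at 9.59, 9.635 and 9.75 in maternal, 9.71, 9.79 and 9.90 in virgin, and 9.64, 9.71 and 9.78 in pups removed mice, so that the maternal and virgin ranges overlapped between 9.71 and 9.75. Its maternal minus virgin difference was -0.14 (SE 0.04, limma adjusted p = 0.212), the 1 call among the pathway genes' probesets. The call was lost without virgin replicate 2, 3 or 4, without any 1 of maternal replicates 2 to 6, and with only the 2 groups in the fit, with differences of -0.15 to -0.12 and limma adjusted p up to 0.411. The brighter probeset gave -0.07 (SE 0.05, limma adjusted p = 0.63). Zbtb33, the gene of Kaiso, was at 8.65 ± 0.06 in maternal, 8.71 ± 0.17 in virgin and 8.63 ± 0.07 in pups removed mice (SD, n = 6 each), and its smallest limma adjusted p was 0.758. It was named after the Uhrf2 promoter had been read.

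**Figure D4:**
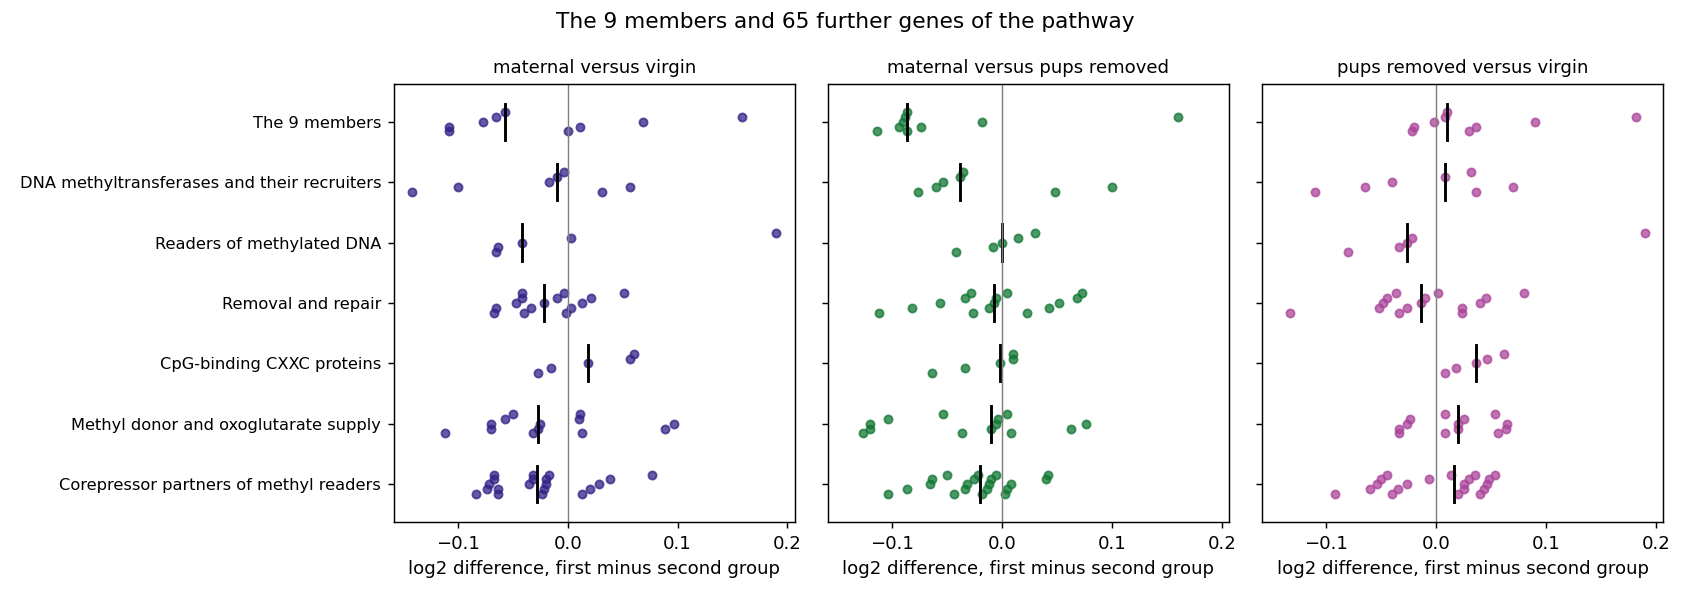
Log2 difference (x axis) of each of the 9 genes and of the 65 further pathway genes, by class (y axis), in the 3 comparisons, with 1 point per gene and the class median as a black bar. Uhrf2 is the point at 0.16 in the top row of both maternal panels, and the medians of the 6 further classes lie between -0.0417 and 0.0367.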

How the data were processed

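Total RNA of 18 LS samples, 1 per mouse, was hybridized to Affymetrix Mouse Gene 1.0 ST arrays. The values deposited by the authors are log2 signals per probeset, summarized by PLIER in Affymetrix Power Tools 1.12.0 after correcting background within GC bins, and were used as they are. The methods state that the data were normalized in the same step; how arrays were set against each other is not given in the sources used here. A method that equalizes arrays compresses differences shared by most genes. Array medians ran from 7.61 to 7.70. By the platform annotation, with symbols updated through RefSeq gene IDs, 21789 of 35557 probesets name 1 gene. Arrays have no read depth, and 6 per group limit the precision. Replicates are different mice.

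A model with 3 groups was fitted to all probesets using limma 3.58.1 (R 4.3.3). Variances were moderated by empirical Bayes, with 2.62 prior degrees of freedom, and p-values were adjusted by Benjamini-Hochberg across the whole table; the threshold of 0.25 follows the methods of the study. On simulated data for maternal against virgin over 35557 probesets, it recovered 76.1%, 86.6% and 100% of added log2 differences of 0.3, 0.6 and 1, and 61 of 236 calls were false. Differences near 0.1 were not simulated. Exact permutation tests ran over all 924 splits of 6 and 6 arrays. Named are the 9 genes, the 4 pathway genes with the smallest p in each comparison (0 were called), and the 5 genes most like Uhrf2, with those most like some other members. The genes, lists and tests were chosen with earlier results of these data known. Of 75 listed pathway genes, 10 were not analysed here. Alternatives were quantile normalization, median centring, 2 filters on probesets, the replicate number as a block, fits of 2 groups, an intensity trend, a stricter threshold, the mean of a gene's probesets, exact permutation, and leaving out each array.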

Additional observations from a re-analysis of the deposited data

Results flagged for a closer look

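Among 57 groups of 6 arrays, those of the 9 genes and of the 10 named pathway genes, 2 held an array far from the other 5. The test used flags about 1 in 20 groups by chance. Gadd45g stood at 8.12 in virgin replicate 5, with the next array at 7.99 and the lowest at 7.92. Dnmt3l stood at 5.91 in pups removed replicate 2, with the next array at 6.08 and the highest at 6.16. None of the 9 genes had such an array in any group.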

How the results depend on the processing

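For the 8 genes other than Uhrf2, the count of 0 called was the same in all 3 comparisons without any 1 array, and became 1 (Tet1) between maternal and virgin mice with probesets of a mean under 7 left out. The count of pathway genes called became 1 (Mthfd1) in that comparison with the same filter and with an intensity trend, and was 0 to 1 without single arrays in both maternal comparisons. For Uhrf2, whose maternal differences chose it, values only are given: the other settings gave 0.14 to 0.16 against virgin and 0.16 to 0.18 against pups removed.

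Over all probesets, 585 were called for maternal against virgin, 11 for maternal against pups removed and 74 for the third comparison, of pups removed with virgin mice. At an adjusted p under 0.05 these were 0, 5 and 7 in limma, with 3706, 3186 and 2892 at an unadjusted p under 0.05. Without single arrays the ranges were 10 to 1639, 5 to 719 and 18 to 266. Leaving out virgin replicate 2, 3, 4 or 6 gave 76, 227, 334 or 1639 in the first, which had 946, 243, 143, 10 and 163 without maternal replicates 1, 2, 4, 5 and 6. The second had 19 without virgin replicate 4 and 30 without virgin replicate 5, then 204, 6 and 5 without maternal replicates 1, 3 and 4, and 719 without pups removed replicate 4. Leaving out virgin replicate 1, 2, 3, 4 or 6 gave 46, 18, 113, 266 or 249 in the third, which had 49 without pups removed replicate 4. With low probesets left out 1130 were called in the first comparison and 204 in the second. The second had 42 with quantile normalization, 7 with median centring, 309 with only probesets that name 1 gene and 70 with a trend. The third had 7 with only such probesets and 33 with 2 groups in the fit. Blocking on replicate number left 356 in the first. RNA was prepared in matched triplets, 1 sample of each group, but no label says whether the replicate numbers mark these triplets. Of 18 same-numbered pairs, 5 had deviations that correlated above 0.1 (median -0.037), and 1 of 18 arrays correlated best with its own number. The block ended the call of the dimmer Tbl1xr1 probeset (adjusted p = 0.326) and changed no other call of a named gene. Apart from the filters, whose tests cover fewer probesets, the cause of these moves was not tested.

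Directions turned for the following differences, none of them called. With quantile normalization Dnmt3a gave 0.0071 for maternal minus pups removed, and for pups removed minus virgin Gadd45b gave -0.0143 and Mthfd1 -0.014. With median centring Dnmt3a gave -0.005 for maternal minus virgin, and for pups removed minus virgin Mbd2 gave -0.02, Gadd45b -0.0217, Mthfd1 -0.0217 and Ahcyl1 -0.005. With probesets averaged, Tet3 gave -0.0017 for maternal minus virgin and Tet1 0.0172 for pups removed minus virgin. Without single arrays, pups removed minus virgin ran from -0.0203 to 0.0197 for Uhrf2, -0.0387 to 0.011 for Tet1, -0.0423 to 0.0037 for Mbd1, -0.0193 to 0.0387 for Mbd2, -0.0343 to 0.0327 for Gadd45b and -0.0107 to 0.0233 for Mthfd1. Maternal minus virgin ran from -0.0077 to 0.0243 for Dnmt3a and -0.0457 to 0.0303 for Dnmt3l, and maternal minus pups removed from -0.007 to 0.0173 for Rbbp4 and from -0.0297 to 3e-04 for Dnmt3a.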
